A study of Mus musculus with 6 samples.

Results

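The genes described here encode the nuclear-encoded subunits of the mitochondrial oxidative phosphorylation system, with a few of their assembly factors. Members were taken by symbol from the count files. A symbol had to start with Nduf, Uqcr, Atp5 or Cox4 to Cox8, or be Sdha, Sdhb, Sdhc, Sdhd or Cyc1. Of 32245 listed symbols, 95 matched. Ndufb1-ps was left out for its -ps symbol, with 929 counts over the 6 libraries, and Cox7b2 and Cox8c were left out with 0 counts. The remaining 92 members comprised 36 complex I subunits, 8 complex I assembly factors (Ndufaf1 to Ndufaf8), 4 complex II subunits, 9 complex III subunits, 17 complex IV genes and 17 complex V genes. The last member is Cox7a2l, a factor of respiratory supercomplexes and not a complex IV subunit. Ndufa4 and its paralog Ndufa4l2 were placed with complex IV, to which the Ndufa4 protein belongs. Their label as oxidative phosphorylation subunits therefore holds for 82 of the 92. The other 10 are the 8 assembly factors, Cox7a2l and Ndufa4l2.

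The libraries came from polyadenylated RNA of primary cardiomyocytes from the hearts of wild-type neonatal mice. Cells received phosphate-buffered saline (PBS), bone morphogenetic protein 2 (BMP2), or BMP2 with dorsomorphin (BMP2+DM), with 2 libraries in each group. BMP2 is a secreted growth factor, and dorsomorphin inhibits the kinases of BMP receptors and is also known to inhibit AMP-activated protein kinase. The series asks what BMP2 changes in these cells and what its receptor inhibitor alters. There was no group with dorsomorphin alone, and the sources used here give no dose, time or age in days. Nothing in the labels says whether replicates were separate cultures or animals, so p-values measure only the spread between these samples, which may be technical.

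Oxidative phosphorylation takes place in the inner mitochondrial membrane. Complex I oxidises NADH and complex II oxidises succinate. Both pass electrons through ubiquinone to complex III, then through cytochrome c to complex IV, which reduces oxygen. Complexes I, III and IV pump protons, and complex V, the ATP synthase, uses the proton gradient to make ATP. The heart depends on this system for most of its ATP. All but a few of the subunits are encoded in the nucleus, and the remainder in mitochondrial DNA.

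Promoter sequence was examined because factors known for driving these genes bind short recognisable motifs. RefSeq promoters (GRCm38.p6, 250 bases before to 50 bases after each start) were found for 75 of the 92 members. Motifs were searched on both strands. The 9 letters GCGCATGCG, a form of the site of NRF1 (nuclear respiratory factor 1), were present in 10 of 75 members (13.3%). They were present in 1.95% of 27025 genes with promoters and in 3.94% of the 10732 such genes that were tested. This motif is nearly its own reverse complement, so most holders match it on both strands in overlapping positions. The YY1 motif AAGATGGC was present in 11 members (14.7%), against 3.19% and 5.06%. The ETS motif CCGGAAGT, bound by the GABP factor among others, was present in 5 members (6.67%), against 4.31% and 8.71%. The motif of estrogen-related receptors (ERR), TCAAGGTCA, was present in 2 members (2.67%), Atp5g3 and Sdhd, against 0.466% and 0.307%.

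The stretches that follow show the NRF1, ERR and ETS motifs in members whose values are given later. No stretch holds the YY1 motif. They run 5′ to 3′ on the gene's own strand, with motif matches in capitals. Ndufa8 and Ndufaf4 rose with BMP2 and hold the NRF1 motif. Atp5g2 and Cox6a1 also hold it and did not pass the test with BMP2. Atp5g3 holds the ERR motif and rose with BMP2. Uqcr11 holds the ETS motif, and the NRF1 motif outside the stretch shown, and did not pass in any comparison. The positions are chr2:36049339-36049368 (minus strand) for Ndufa8, chr4:24897923-24898012 (plus) for Ndufaf4, chr2:73911327-73911416 (minus) for Atp5g3, chr15:102671078-102671107 (minus) for Atp5g2, chr10:80406832-80406921 (minus) for Uqcr11 and chr5:115349069-115349158 (minus) for Cox6a1.
Ndufa8: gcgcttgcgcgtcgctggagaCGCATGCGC
Ndufaf4: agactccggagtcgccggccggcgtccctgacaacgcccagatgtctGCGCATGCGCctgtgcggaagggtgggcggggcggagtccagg
Atp5g3: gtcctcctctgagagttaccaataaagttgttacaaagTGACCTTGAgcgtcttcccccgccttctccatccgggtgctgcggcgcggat
Atp5g2: gactcgttggctccggccGCGCATGCGCag
Uqcr11: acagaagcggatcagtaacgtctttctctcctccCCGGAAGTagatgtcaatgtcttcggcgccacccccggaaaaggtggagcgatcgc
Cox6a1: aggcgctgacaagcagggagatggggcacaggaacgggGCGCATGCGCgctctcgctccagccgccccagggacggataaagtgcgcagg

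The smallest library had 10106667 counts on genes and the largest 14366042, and members took 1.57% to 2.04% of them. Levels below are CPM, that is, counts divided by the library size after scaling with the TMM factors of edgeR. The ribosomal-repeat models Gm42418 and AY036118 together made up 1.31% of the gene counts of PBS 1 and 2.10% of those of BMP2 1, against 0.0702% to 0.0928% in the other 4 libraries. The 2 PBS libraries also stood apart from each other in these members. Of 92 members, 81 were higher in PBS 1 than in PBS 2, with a median log2 ratio of 0.21, while the median over 14266 tested genes was -0.002263. The order went with the length of the coding sequence, as annotated in GENCODE vM21. Members at or below the median coding length of 432 bases were higher in PBS 1 in 46 of 46 cases, with a median log2 ratio of 0.33. Of the 45 longer members, 34 were higher in PBS 1, with a median of 0.06. Tested genes of any kind at or below that coding length were higher in PBS 1 in 508 of 740 cases (median 0.12). The BMP2 libraries differed in the same direction by less, with 64 of 92 members higher in BMP2 1 than in BMP2 2 (median 0.09), 37 of them among the 46 shorter members (median 0.15). In BMP2+DM, 37 of 92 were higher in the first library (median -0.03).

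All 92 members entered the test, edgeR's quasi-likelihood test over 14378 genes with adjusted p under 0.05. The heat map of every member by library shows them by complex and coding length.

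**Figure D1:**
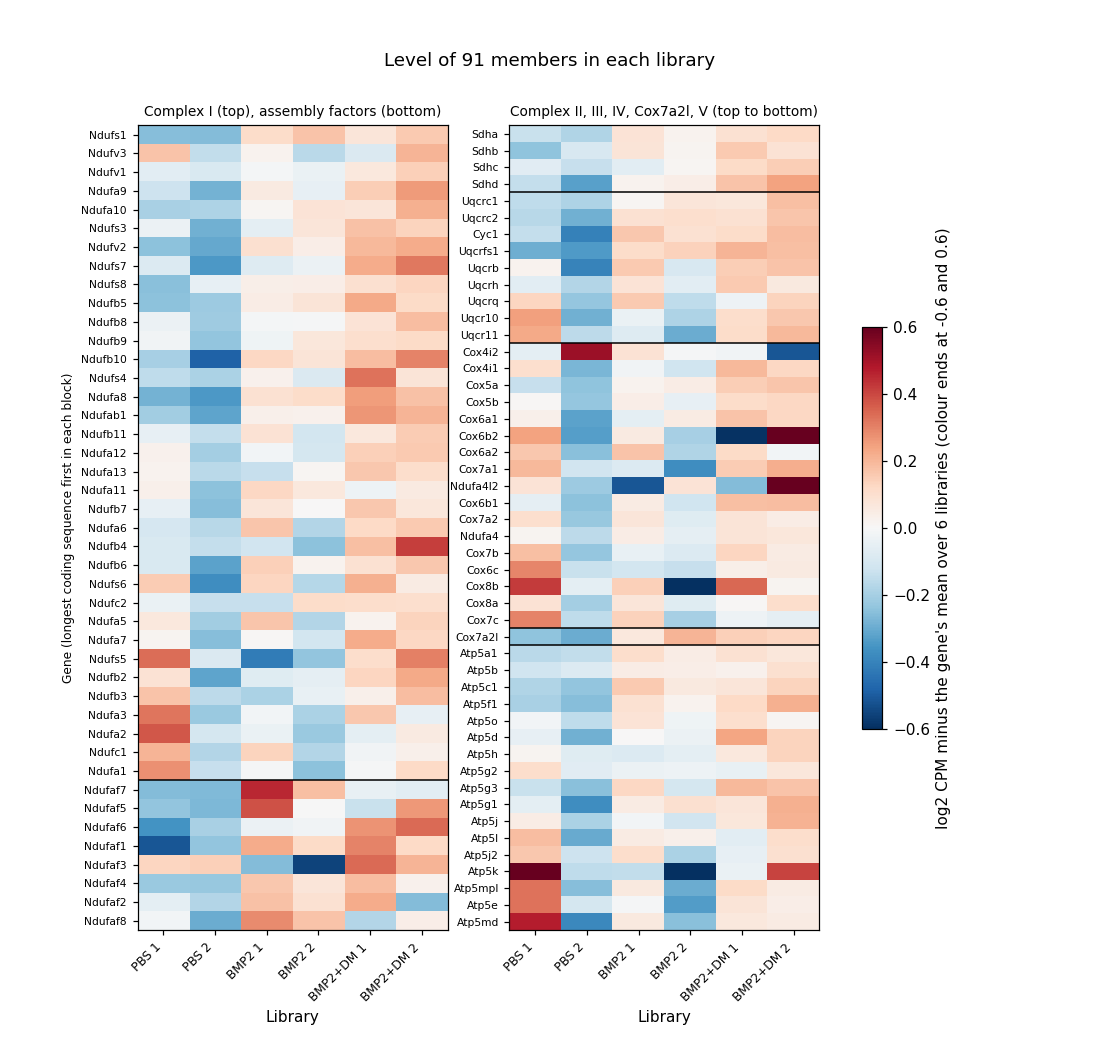
Heat map of 91 of the 92 members (rows, by complex and from longest to shortest coding sequence) in the 6 libraries (columns), coloured by log2 CPM minus the gene's mean over the 6 libraries, red above and blue below. Long members such as Ndufs1 and Uqcrfs1 are blue in both PBS libraries and red in the other 4, while the shortest members of complexes I, III, IV and V are red in PBS 1.

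With BMP2, 26 of the 92 members rose against PBS, where 6.55% of all tested genes rose. Only Ndufs5 fell, where 9.29% of all tested genes fell. The 26 were 8 of 36 complex I subunits, 3 of 8 assembly factors, 3 of 4 complex II subunits, 4 of 9 in complex III, 1 of 17 in complex IV, 6 of 17 in complex V, and Cox7a2l. Changes were modest. The median log2 fold change of the members was 0.11, against 0.00 over all tested genes, and the whole range was -0.68 to 0.58. Both BMP2 libraries were above both PBS libraries for 41 members (27.9% of all tested genes) and below for 2 (28.0%).

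Adding dorsomorphin to BMP2 gave 4 rises against BMP2 alone, in Ndufs5, Ndufb4, Ndufs7 and Ndufaf3. None of these had passed as higher with BMP2, and Ndufs5 had fallen. That is 4.35% of members against 4.28% of all tested genes, so the share of calls is near the background. That reading changed with the setting. With no low-count filter 14 members rose (15.2%, against 3.90% of all genes in that fit), and with library size alone 13 did (14.1%, against 5.21%). None fell in edgeR's test, where 4.44% of all tested genes did. At an unadjusted p under 0.05, 23 members were higher and 1 lower, and DESeq2 called 2 higher and 0 lower. The median log2 difference of the members was 0.13, against 0.00 over all tested genes, and 81 of 92 differences were above 0. Without BMP2 2 that median was 0.08. Of the members, 47 had both BMP2+DM libraries above both BMP2 libraries (25.4% of all tested genes), and 4 had them below (24.9%).

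Against PBS, BMP2+DM showed 44 of 92 members risen, where 9.38% of all tested genes rose, and 0 fallen, where 11.5% did. No member was lower at an unadjusted p under 0.05 either, and DESeq2 called 36 higher and 0 lower. The 44 were 18 of 36 complex I subunits, 3 of 8 assembly factors, 4 of 4 in complex II, 6 of 9 in complex III, 5 of 17 in complex IV, 7 of 17 in complex V, and Cox7a2l. The median log2 fold change was 0.23, against 0.01 over all tested genes, and it was 0.15 without PBS 2. Groups did not overlap for 59 members, all of them higher with BMP2+DM (29.0% of all tested genes; 29.5% were lower). BMP2 against PBS and BMP2+DM against PBS use the same PBS libraries, so the 2 counts are not independent of each other. In this bulk RNA, fewer cells of a type and less RNA per cell cannot be told apart.

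Single libraries moved these counts. With BMP2, 24 members rose without PBS 1 (3.53% of all tested genes), 14 without PBS 2 (3.20%), 16 without BMP2 1 (3.84%) and 18 without BMP2 2 (3.68%). Without PBS 2, 8 members fell (8.70% of members, against 5.67% of all tested genes) and the median was 0.03. Without PBS 1 none fell and the median was 0.21. Leaving out PBS 1 and BMP2 1 together left 7 rises among members, where 1.16% of all tested genes rose, with a median of 0.15. In that fit each of the 2 groups is a single library assumed to vary like the BMP2+DM pair. For BMP2+DM against PBS the count was 27 without PBS 2 (4.99% of all tested genes) and between 33 and 46 without any other library (5.59% to 8.73%). It was 34 without PBS 1 and BMP2 1 together (3.62%). In every fit without 1 library, 11 of the 26 and 22 of the 44 stayed past the test, but 0 of the 4 that rose from BMP2 to BMP2+DM. The 11 were Ndufs1, Ndufv2, Ndufa8, Ndufb10, Cyc1, Uqcrc2, Uqcrfs1, Atp5a1, Atp5c1, Atp5f1 and Cox7a2l.

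Calls were also counted by coding length. Of the 46 members at or below 432 coding bases, 4 rose with BMP2 and 11 with BMP2+DM against PBS, with medians of 0.03 and 0.13. Among the 45 longer members, 22 and 33 rose, with medians of 0.21 and 0.31. Over all tested genes at or below that length, 4.55% rose with BMP2 and 9.91% with BMP2+DM. Those above it rose in 7.22% and 10.1% of cases. Across the 91 members with a coding length, Spearman's rank correlation between length and log2 fold change was 0.64 for BMP2 against PBS and 0.56 for BMP2+DM against PBS. For BMP2+DM against BMP2 it was -0.30. The same correlation with the log2 ratio of PBS 1 over PBS 2 was -0.77, with that of BMP2 1 over BMP2 2 it was -0.43, and with that of the BMP2+DM pair it was 0.06. These values describe genes measured in the same 6 libraries. The first 3 share libraries with each other and with the ratios within the pairs, so the correlations are not independent. The split by length was made after the values were seen, and the part that the differences within the PBS and BMP2 pairs have in the rises was not tested.

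**Figure D2:**
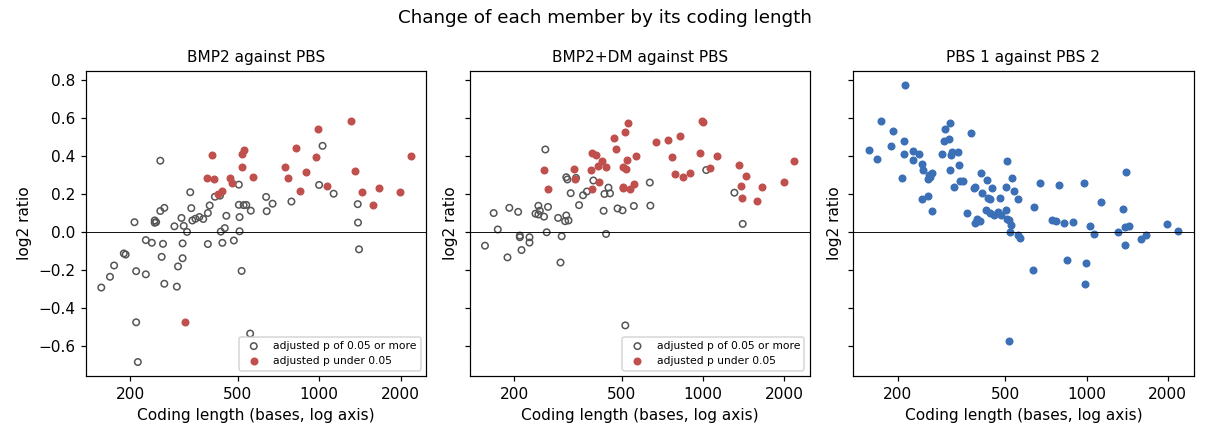
Coding length in bases (log axis) of 91 members against their log2 ratio for BMP2 over PBS (left), BMP2+DM over PBS (middle) and PBS 1 over PBS 2 (right); each point is a gene, and filled red points passed the test. Rises sit mostly to the right of 432 bases in the first panels, and in the right panel every member at or below that length lies above 0.

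Summed over complexes, the levels moved by unequal amounts. All members together summed to 17485 and 15946 CPM in PBS, 18996 and 18340 in BMP2, and 19669 and 20020 in BMP2+DM. The means were 11.7% and 18.7% above PBS, beside a gap of 9.65% between the PBS libraries. With BMP2 the sums were higher by 12.1% for complex I, 14.6% for complex II, 18.2% for complex III and 11.9% for complex V. The 8 assembly factors were higher by 28.4%. Without PBS 2 the difference was 6.77% for all members, 6.97% for complex I and 11.1% for complex III. Complex IV differed by 2.54% only, and neither BMP2 library was above both PBS libraries. Its sum was 2881 and 2329 CPM in PBS, a gap of 23.7%, and 2755 and 2587 in BMP2. Without PBS 2 the BMP2 mean of complex IV was -7.286% from PBS, and without BMP2 1 it was -0.69%. It was 14.7% without PBS 1 and 5.77% without BMP2 2. With BMP2+DM every complex had both libraries above both PBS libraries, by 12.9% for complex IV (2960 and 2922 CPM) and by 16.1% to 25.5% for the others. The value for complex IV was 2.10% without PBS 2 and 26.3% without PBS 1. No test was applied to these sums.

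**Figure D3:**
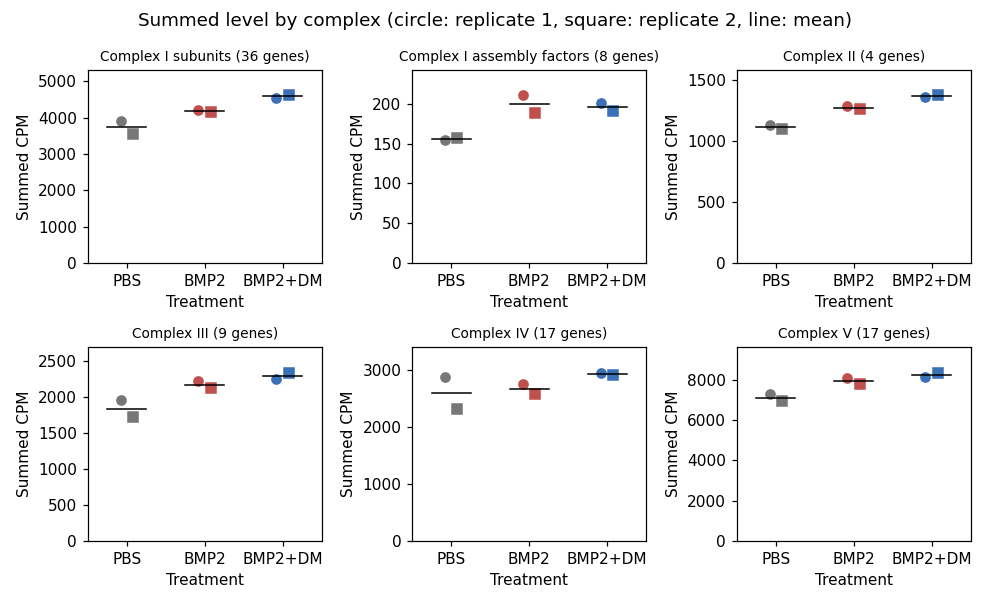
Summed CPM of the members of each complex by treatment; circles are replicate 1, squares replicate 2, lines the mean of 2, and axes start at 0. Sums of complexes I, II, III and V are higher in all 4 treated libraries than in PBS, whereas for complex IV the BMP2 libraries lie between the PBS libraries.

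Complex I has 7 nuclear-encoded core subunits, which carry the flavin, the iron-sulfur clusters and the quinone site. Of these, Ndufs1 and Ndufv2 rose with BMP2. Ndufs1, Ndufs3, Ndufs7, Ndufv1 and Ndufv2 rose with BMP2+DM against PBS, and Ndufs8 did not pass. Ndufs1, the largest core subunit (chr1:63143596-63176833), read 202 and 201 CPM in PBS, 259 and 271 in BMP2, and 253 and 269 in BMP2+DM. Both treated pairs lay wholly above PBS and overlapped each other. Its log2 fold change with BMP2 was 0.40 ± 0.06 (standard error, adjusted p = 7.08e-05), and from BMP2 to BMP2+DM it was -0.02 ± 0.06 (adjusted p = 0.857). Ndufv2, an iron-sulfur subunit of the NADH-oxidising module (chr17:66078638-66101559), read 152 and 146, then 192 and 185, then 206 and 210 CPM. The 3 groups did not overlap, and only the steps from PBS passed, at 0.34 ± 0.06 (adjusted p = 0.000803) and 0.48 ± 0.06 (adjusted p = 1.68e-05).

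Other core subunits passed only with BMP2+DM against PBS, or with dorsomorphin added. Ndufs7, a core subunit next to the quinone site (chr10:80249121-80256794), read 91.4 and 76.4 CPM in PBS, 91.9 and 94.5 in BMP2, and 113 and 121 in BMP2+DM. It was close to PBS with BMP2 and highest with BMP2+DM. It rose from BMP2 to BMP2+DM by 0.33 ± 0.09 (adjusted p = 0.0322) and from PBS by 0.48 ± 0.09 (adjusted p = 0.000937). The first of these calls was lost without BMP2 1 (0.31), BMP2 2 (0.35) or BMP2+DM 2 (0.28). Ndufv1, which binds NADH and the flavin, read 228 and 224, 236 and 232, and 249 and 263 CPM, a rise of 0.18 ± 0.06 from PBS to BMP2+DM (adjusted p = 0.0292). It did not pass with BMP2 alone. The Ndufv1 call was lost without PBS 1 (0.19), PBS 2 (0.17) or BMP2+DM 2 (0.14).

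Complex I has 29 further members here, accessory subunits that surround the core. With BMP2, 6 of them rose (20.7%, against 6.55% of all tested genes) and 1 fell (3.45%, against 9.29%). From BMP2 to BMP2+DM, 2 rose (6.9%, against 4.28%), a share not far from the background. From PBS to BMP2+DM, 12 rose (41.4%, against 9.38%). Ndufa8, an accessory subunit facing the intermembrane space (chr2:36036326-36049406), read 112 and 107 CPM in PBS, 145 and 147 in BMP2, and 162 and 153 in BMP2+DM. All 4 treated libraries were above PBS, with log2 fold changes of 0.41 ± 0.07 (adjusted p = 0.000404) and 0.53 ± 0.07 (adjusted p = 2.39e-05). Ndufab1, the mitochondrial acyl carrier protein (chr7:122085403-122101886), read 145 and 135, 172 and 171, and 202 and 193 CPM. It rose by 0.29 ± 0.07 with BMP2 (adjusted p = 0.00536) and by 0.49 ± 0.07 with BMP2+DM (adjusted p = 2.39e-05), and the BMP2 call was lost without PBS 2 (0.24).

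Ndufs5 was the 1 member called lower with BMP2, among 26 members whose log2 fold change was below 0. This accessory subunit (chr4:123712710-123718202) read 69.0 and 51.5 CPM in PBS, 40.8 and 46.4 in BMP2, and 58.8 and 67.4 in BMP2+DM. The BMP2 pair lay below both other groups, and the BMP2+DM pair lay within the range of PBS. It fell by 0.47 ± 0.13 on the log2 scale with BMP2 (adjusted p = 0.0202) and rose by 0.53 ± 0.13 with dorsomorphin added (adjusted p = 0.0168). Without PBS 1 the value with BMP2 was -0.24 and without BMP2 1 it was -0.38, and neither passed. The rise was lost without BMP2 1 (0.44) or BMP2+DM 2 (0.43). Its coding sequence is 318 bases, among the shorter members. Ndufb4, a membrane-arm subunit (chr16:37647170-37654453), read 27.4 and 26.5, 26.9 and 24.6, and 33.1 and 38.9 CPM. PBS and BMP2 overlapped and BMP2+DM was higher, by 0.48 ± 0.14 over BMP2 (adjusted p = 0.035). That call was kept in 1 of 6 fits without 1 library, in which it ranged from 0.36 to 0.59. The small membrane-arm subunit Ndufa3, the lowest complex I gene by CPM, read between 15.6 and 22.7 CPM in the 6 libraries and passed in no comparison.

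The 8 Ndufaf genes encode factors that help to assemble complex I and leave the finished enzyme. Ndufaf1, which joins an early membrane-arm intermediate, read 23.2 and 28.1 CPM in PBS, 38.7 and 35.9 in BMP2, and 40.8 and 36.1 in BMP2+DM. Both treated pairs were above PBS, by 0.54 ± 0.14 (adjusted p = 0.00992) and 0.58 ± 0.14 (adjusted p = 0.00466). Ndufaf7, a methyltransferase, read 18.6 and 18.5, 30.5 and 25.2, and 21.6 and 21.3 CPM. It was highest with BMP2, at 0.58 ± 0.15 (adjusted p = 0.0111), and did not pass with BMP2+DM against PBS (0.21 ± 0.15). Ndufaf4 read 46.4 and 46.3, 60.7 and 57.0, and 61.6 and 55.1 CPM, with 0.34 ± 0.11 for BMP2 (adjusted p = 0.0326). Leaving out libraries ended these BMP2 calls. Ndufaf1 was lost without PBS 1 (0.41) or BMP2 1 (0.49). Ndufaf7 was lost without PBS 1 (0.59), PBS 2 (0.58) or BMP2 1 (0.44), and Ndufaf4 without PBS 1 (0.34), PBS 2 (0.34), BMP2 1 (0.30) or BMP2 2 (0.39).

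Ndufaf3 rose with dorsomorphin added, by 0.67 ± 0.20 (adjusted p = 0.0484), from 9.002 and 7.351 CPM in BMP2 to 13.6 and 12.4. PBS read 11.8 and 11.9 CPM, between the other groups. This call was lost in all 6 fits without 1 library (0.53 to 0.83). Ndufaf6 rose only from PBS to BMP2+DM, by 0.58 ± 0.20 (adjusted p = 0.04995), from 7.79 and 8.71 CPM to 12.0 and 12.6, and was lost in all 6 fits too (0.50 to 0.66). Ndufaf8 read 8.01 to 12.0 CPM in the 6 libraries and passed in no comparison. These are among the lowest levels of the family.

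Complex II consists of 4 proteins, all encoded in the nucleus, and is shared with the citric acid cycle. Sdha, the flavoprotein that oxidises succinate (chr13:74322254-74350280), read 490 and 475 CPM in PBS, 570 and 547 in BMP2, and 575 and 585 in BMP2+DM. Sdhb, its iron-sulfur partner, read 187 and 207, 233 and 223, and 246 and 235 CPM. For both genes all 4 treated libraries were above PBS. Their log2 fold changes were 0.21 ± 0.05 (adjusted p = 0.00563) and 0.21 ± 0.06 (adjusted p = 0.0267) with BMP2, and 0.26 ± 0.05 and 0.29 ± 0.06 with BMP2+DM.

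The membrane anchors of complex II differed in which call they passed. Sdhd (chr9:50596357-50603812) read 231 and 204 CPM in PBS, 259 and 262 in BMP2, and 287 and 302 in BMP2+DM. The 3 groups did not overlap, with 0.26 ± 0.06 for BMP2 (adjusted p = 0.00703) and 0.44 ± 0.06 for BMP2+DM (adjusted p = 4.92e-05). Sdhc read 223 and 213, 225 and 236, and 254 and 260 CPM. It did not pass with BMP2 (0.08 ± 0.06, adjusted p = 0.411) and rose with BMP2+DM by 0.24 ± 0.06 (adjusted p = 0.00623). With BMP2, the call of Sdha was lost without PBS 2 (0.19) or BMP2 1 (0.18). Sdhb was lost without PBS 1 (0.14), BMP2 1 (0.18) or BMP2 2 (0.24), and Sdhd without PBS 2 (0.18) or BMP2 2 (0.25). With BMP2+DM, Sdhb was lost without PBS 1 (0.22) and Sdhc without PBS 2 (0.20).

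Complex III members divided by role. The 4 genes for the core proteins Uqcrc1 and Uqcrc2 and the electron-carrying subunits Uqcrfs1 and Cyc1 all rose with BMP2 and with BMP2+DM against PBS. None of the 5 small subunits passed with BMP2, and 2 of 5, Uqcrb and Uqcrh, rose with BMP2+DM. The division by role was made with the values in view, and the 4 also have longer coding sequences than the 5. Uqcrfs1, the Rieske iron-sulfur protein (chr13:30540308-30545362), read 243 and 235 CPM in PBS, 322 and 328 in BMP2, and 343 and 337 in BMP2+DM. It had the smallest p of all members with BMP2, at 0.44 ± 0.05 (adjusted p = 6.31e-06), and with BMP2+DM, at 0.51 ± 0.05 (adjusted p = 8.64e-07).

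Cyc1, the cytochrome c1 subunit (chr15:76343523-76346260), read 287 and 240 CPM in PBS, 356 and 338 in BMP2, and 343 and 362 in BMP2+DM. Its log2 fold change with BMP2 was 0.39 ± 0.07 (adjusted p = 0.000456) with all libraries, 0.53 without PBS 1 and 0.27 without PBS 2, and the call held in each. Uqcrc2 (chr7:120635176-120659524) read 361 and 332, 431 and 435, and 432 and 454 CPM, a rise of 0.32 ± 0.05 with BMP2 (adjusted p = 0.000181). An opposite-strand model, Pdzd9, overlaps 19.8% of its exonic bases, and the sources used here do not state whether counting used strand. Uqcrc1 read 379 and 371, 425 and 443, and 442 and 477 CPM, a rise of 0.21 ± 0.05 (adjusted p = 0.00558). That call was lost without PBS 2 (0.20) or BMP2 2 (0.18).

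The small complex III subunits showed the spread of the PBS pair. Uqcr10, one of the smallest, read 115 and 79.8 CPM in PBS, 94.8 and 85.5 in BMP2, and 105 and 109 in BMP2+DM. Uqcr11, another, read 94.6 and 72.4, 76.6 and 65.6, and 87.1 and 92.3 CPM. In both, the treated groups lay within or near the range of the PBS pair, and neither passed in any comparison.

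Cytochrome c oxidase, complex IV, takes its catalytic subunits from mitochondrial DNA, and the nuclear members here surround them. Cox5a, an inner subunit on the matrix side (chr9:57521274-57532426), was the only 1 of 17 that rose with BMP2. It read 233 and 217 CPM in PBS, 259 and 264 in BMP2, and 283 and 288 in BMP2+DM. The groups did not overlap, with 0.22 ± 0.06 for BMP2 (adjusted p = 0.0111) and 0.34 ± 0.06 for BMP2+DM (adjusted p = 0.000179). The BMP2 call was lost without PBS 2 (0.17), BMP2 1 (0.23) or BMP2 2 (0.21). The opposite-strand model Gm26631 overlaps 12.8% of its exonic bases.

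With BMP2+DM against PBS, Cox4i1, Cox5b, Cox6a1 and Cox6b1 rose as well. Cox4i1, the common form of the regulatory subunit 4 (chr8:120668222-120674207), read 506 and 390 CPM in PBS, 465 and 434 in BMP2, and 540 and 514 in BMP2+DM. BMP2 lay within the PBS pair and BMP2+DM just above it, with 0.23 ± 0.08 (adjusted p = 0.0487). Without PBS 2 that value was 0.06, and the call was kept in 1 of 6 fits without 1 library. Cox5b, which binds zinc, read 230 and 195, 235 and 221, and 248 and 250 CPM (0.22 ± 0.07, adjusted p = 0.0288). Cox6b1, which faces the intermembrane space, read 231 and 202, 248 and 221, and 272 and 273 CPM (0.33 ± 0.07, adjusted p = 0.00217). Without PBS 2 the values were 0.11 for Cox5b, 0.12 for Cox6a1 and 0.24 for Cox6b1, and none of the 3 passed. Cox5b was also lost without BMP2+DM 1 (0.23) or BMP2+DM 2 (0.22), and Cox6a1 without BMP2+DM 1 (0.25). Cox6c, which read 235 and 175 CPM in PBS and 174 to 199 CPM in the other 4 libraries, passed in no comparison.

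Several complex IV subunits exist as a general and a heart or muscle form, encoded by separate genes. In these cells the general form had the higher level throughout. Scaled per kilobase of exon, Cox6a2, the heart and muscle form, made up 29.1% ± 0.62 (SD, n = 2) of Cox6a1 and Cox6a2 in PBS, 27.8% ± 4.49 in BMP2 and 26.3% ± 0.77 in BMP2+DM. Cox7a1 made up 12.2% ± 0.10, 9.93% ± 0.64 and 12.3% ± 0.52 of Cox7a1 and Cox7a2. Cox8b made up 6.10% ± 0.53, 4.26% ± 1.69 and 5.69% ± 1.12 of Cox8a and Cox8b. In an exact permutation test the smallest two-sided p that 2 libraries against 2 allow is 0.333, so these shares could not pass a threshold.

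By library, Cox6a2 read 99.1 and 74.4 CPM in PBS, 99.6 and 78.1 in BMP2, and 95.8 and 87.5 in BMP2+DM. Its general partner Cox6a1 read 244 and 192, 229 and 247, and 269 and 261 CPM. Cox7a1 read 15.9 and 12.8, 13.1 and 10.7, and 15.4 and 16.1 CPM. BMP2 2 was the lowest of the 6, and PBS and BMP2 overlapped. Cox8b read 8.36 and 6.01, 6.91 and 3.44, and 7.94 and 6.32 CPM, with all 3 groups overlapping. Cox7a2 and Cox8a, their general partners, read 162 to 204 and 170 to 211 CPM over the 6 libraries. Of these 6 genes, Cox6a1 alone passed a test, in the comparison of BMP2+DM with PBS (0.28 ± 0.08, adjusted p = 0.0223).

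**Figure D4:**
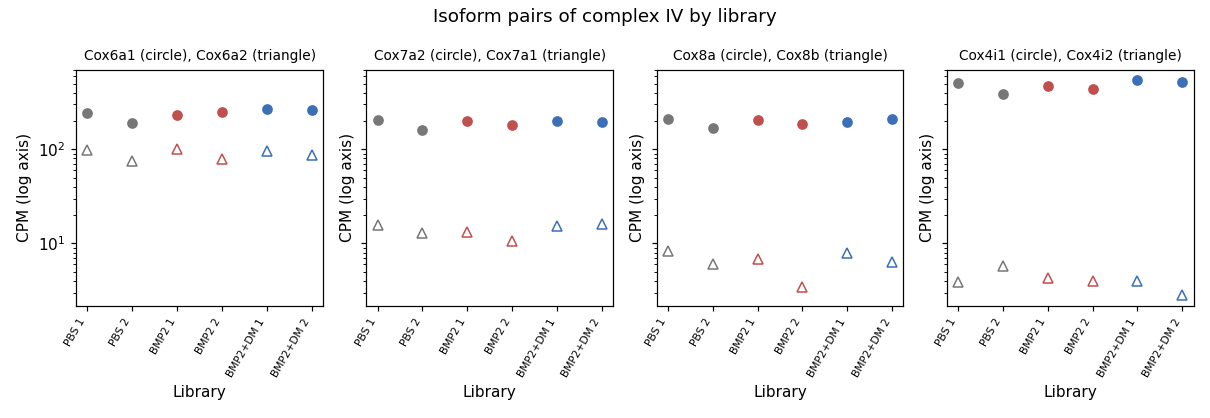
CPM (log axis) of 4 pairs of complex IV isoform genes in the 6 libraries, with circles for the general form and open triangles for the tissue form. In each panel the triangles lie below the circles in every library.

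Forms known from lung or from low oxygen were near the bottom of the range. Cox4i2 read 3.86 and 5.75 CPM in PBS, 4.27 and 4.01 in BMP2, and 3.97 and 2.82 in BMP2+DM, or 2.15%, 1.78% and 1.247% of Cox4i1 and Cox4i2 per kilobase of exon. Ndufa4l2, a paralog known as a target of hypoxia-inducible factor, read 2.27 to 5.73 CPM, beside 212 to 250 CPM for Ndufa4. Cox6b2, the testis form, read 1.16 to 3.11 CPM. None of these passed in any comparison.

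Complex V makes ATP in its F1 head, which is joined by stalks to a ring of c subunits in the membrane. Of the 5 genes of the head, 3 rose with BMP2 and 4 with BMP2+DM against PBS. Atp5b, the catalytic beta subunit (chr10:128083273-128090391), had the highest CPM of all members. It read 2339 and 2395 CPM in PBS, 2615 and 2607 in BMP2, and 2583 and 2710 in BMP2+DM, a rise of 0.14 ± 0.04 with BMP2 (adjusted p = 0.0395). Atp5a1, the alpha subunit, read 1594 and 1609, 1922 and 1842, and 1899 and 1873 CPM, a rise of 0.23 ± 0.05 (adjusted p = 0.00244). Treated libraries were above PBS for both, and BMP2 and BMP2+DM overlapped. The BMP2 call of Atp5b was lost without PBS 1 (0.12), PBS 2 (0.16), BMP2 1 (0.14) or BMP2 2 (0.14). Its call with BMP2+DM was lost without PBS 1 (0.14) or BMP2+DM 2 (0.13).

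Atp5c1, the gamma subunit that turns inside the head (chr2:10056016-10080510), read 391 and 377 CPM in PBS, 496 and 462 in BMP2, and 467 and 487 in BMP2+DM. Its rise with BMP2 was 0.32 ± 0.05 (adjusted p = 0.000126). Atp5d, the delta subunit, passed only with BMP2+DM, at 273 and 231, 282 and 275, and 332 and 309 CPM (0.34 ± 0.07, adjusted p = 0.00111). In the peripheral stalk, 1 of 4 genes rose. This was Atp5f1, subunit b (chr3:105942698-105960099), at 396 and 380, 484 and 460, and 493 and 526 CPM. The groups did not overlap, with 0.28 ± 0.05 for BMP2 (adjusted p = 0.000448) and 0.39 ± 0.05 for BMP2+DM (adjusted p = 9.98e-06). Atp5h, another stalk gene, read 265 to 308 CPM over the 6 libraries and passed in no comparison.

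The c ring is built from 1 mature protein encoded by 3 genes. Atp5g3 (chr2:73908447-73911326) read 427 and 394 CPM in PBS, 510 and 435 in BMP2, and 536 and 528 in BMP2+DM. Atp5g1 read 342 and 275, 368 and 380, and 373 and 412 CPM. Both rose with BMP2, by 0.20 ± 0.06 (adjusted p = 0.033) and 0.28 ± 0.07 (adjusted p = 0.0162), and with BMP2+DM, by 0.37 ± 0.06 and 0.35 ± 0.07. Atp5g2 read 104 and 92.3, 94.3 and 94.7, and 93.8 and 101 CPM. All its treated libraries lay within the PBS pair, and its log2 fold change with BMP2 was -0.06 ± 0.09 (adjusted p = 0.729). The difference between the c genes was not tested. Atp5g3 lost its BMP2 call without PBS 1 (0.26), PBS 2 (0.15) or BMP2 1 (0.08). Atp5g1 lost it without PBS 2 (0.13), BMP2 1 (0.30) or BMP2 2 (0.25), and lost the BMP2+DM call without PBS 2 (0.20).

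The 5 other membrane subunits, Atp5j2, Atp5k, Atp5l, Atp5md and Atp5mpl, passed in no comparison. Atp5k, subunit e and the lowest complex V gene by CPM, read 12.1 and 7.05 CPM in PBS, 7.09 and 4.87 in BMP2, and 7.65 and 10.4 in BMP2+DM. PBS 1 was the highest of the 6 and BMP2 2 the lowest. Its log2 fold change with BMP2 was -0.68 ± 0.29 (adjusted p = 0.122).

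Cox7a2l, a factor that links complexes III and IV in supercomplexes (chr17:83501918-83517330), was named after its values were seen. It read 143 and 138 CPM in PBS, 177 and 195 in BMP2, and 187 and 185 in BMP2+DM. All 4 treated libraries were above PBS, by 0.40 ± 0.07 with BMP2 (adjusted p = 0.000339) and 0.41 ± 0.07 with BMP2+DM (adjusted p = 0.000245). From BMP2 to BMP2+DM it was 0.00 ± 0.07 (adjusted p = 0.993). Its coding sequence of 402 bases puts it among the 4 shorter members that rose with BMP2. Ndufb10, an accessory complex I subunit also named after its values were seen, had the largest rise of any subunit with BMP2+DM. It read 133 and 109, 167 and 161, and 174 and 187 CPM, a rise of 0.43 ± 0.08 with BMP2 (adjusted p = 0.0013) and of 0.57 ± 0.08 with BMP2+DM (adjusted p = 6.25e-05).

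Compared per length, the levels of members spanned a wide range. On the scale of CPM per kilobase of the transcript with the longest coding sequence, the mean over 6 libraries was highest for Atp5b, at 1326 ± 75 (SD). Atp5a1 (724 ± 60), Atp5g3 (660 ± 84) and Cox4i1 (637 ± 75) came next. These SDs also hold the change between treatments. In PBS, Atp5a1 read 648 ± 4, Atp5g3 575 ± 33 and Cox4i1 601 ± 110 (SD, n = 2). In BMP2 they read 762 ± 23, 662 ± 75 and 604 ± 29. In BMP2+DM the values were 763 ± 7, 745 ± 8 and 707 ± 25. The order of these 3 was not tested. The highest in complex III was Uqcrq (376 ± 42), in complex I Ndufb8 (280 ± 25) and in complex II Sdhd (209 ± 29). Among the assembly factors it was Ndufaf2 (27.0 ± 3.6), where the opposite-strand model B230220B15Rik overlaps 65.7% of exonic bases. The lowest of all members were Cox4i2 (5.66 ± 1.30), Cox6b2 (4.72 ± 1.78) and Ndufa4l2 (3.63 ± 1.32). The order of the last 3 was not tested either. These orders depend on the length used. Per kilobase of merged exons, Atp5b (600) and Atp5a1 (571) stayed highest, but Cox6a1 (342.5) was above Atp5g3 (216). Uqcrq read 83.1 beside 221 for Uqcrfs1, Ndufb8 60.5 beside 198 for Ndufb6, and Ndufaf2 6.15 beside 22.5 for Ndufaf1.

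Calls were counted by promoter motif as well. With BMP2, 3 of the 10 members with the NRF1 motif and 19 of the 65 without it rose, and with BMP2+DM against PBS 4 of 10 and 30 of 65 did. Of the 11 with the YY1 motif, 1 rose with BMP2 and 5 with BMP2+DM, beside 21 and 29 of the 64 without it. Of the 5 with the ETS motif, 0 rose with BMP2 and 2 with BMP2+DM, beside 22 and 32 of the 70 without it. Both holders of the ERR motif, Atp5g3 and Sdhd, rose in both comparisons with PBS, beside 20 and 32 of the 73 without it. Of all tested genes, 6.55% rose with BMP2 and 9.38% with BMP2+DM against PBS. These are counts of letters in a window, not of bound sites.

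Regulators of mitochondrial biogenesis include coactivators of the PGC-1 family and the nuclear receptors and factors they act with. Of 21 such genes, 3 rose and 0 fell with BMP2, 1 rose and 1 fell from BMP2 to BMP2+DM, and 6 rose and 0 fell from PBS to BMP2+DM. Of all tested genes, 6.55% rose and 9.29% fell with BMP2, and 4.28% and 4.44% from BMP2 to BMP2+DM. From PBS to BMP2+DM, 9.38% rose and 11.5% fell. The regulators' share from BMP2 to BMP2+DM, 4.76% each way, is near that background. The same background applies to the gene lists that follow. Perm1, a muscle regulator of PGC-1 and ERR target genes, read 39.7 and 40.3 CPM in PBS, 81.9 and 76.9 in BMP2, and 73.9 and 80.5 in BMP2+DM. It rose by 0.99 ± 0.10 with BMP2 (adjusted p = 1.24e-06). Esrra, which encodes ERR alpha, rose by 0.42 with BMP2 (adjusted p = 0.00285) and Esrrg, which encodes ERR gamma, by 0.52 (adjusted p = 0.0403). Ppargc1a, which encodes PGC-1 alpha, read 38.3 and 37.4, 42.3 and 44.6, and 51.1 and 54.0 CPM. It did not pass with BMP2 (0.20, adjusted p = 0.268) and rose by 0.47 with BMP2+DM against PBS (adjusted p = 0.00475). Nrf1, Gabpa, Yy1 and Tfam passed in no comparison.

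Assembly factors of complexes II to V insert cofactors, build intermediates or support the mitochondrially encoded subunits. Of 32 tested, 8 rose and 0 fell with BMP2, and 12 rose and 0 fell with BMP2+DM against PBS. From BMP2 to BMP2+DM none was called in either direction by edgeR or DESeq2, with 1 higher and 0 lower at an unadjusted p under 0.05. Lrpprc, which stabilises mitochondrial messenger RNA, had the largest rise, from 91.4 and 95.8 CPM to 149 and 146 (0.66, adjusted p = 7.25e-06). The complex III factor Uqcc1 rose by 0.47, the complex IV factors Cox11, Cox14 and Coa5 by 0.59, 0.54 and 0.46, and the complex V factor Tmem70 by 0.45. Pet117 was listed at 0 in all libraries. Of 9 further complex I assembly factors, such as Acad9 and Ecsit, 0 passed in any comparison in edgeR or DESeq2, and 2 were higher with BMP2 at an unadjusted p under 0.05.

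Genes on either side of the respiratory chain were counted in the same way. Of 18 genes of the citric acid cycle and pyruvate dehydrogenase, 13 rose and 0 fell with BMP2, and 16 rose and 0 fell with BMP2+DM against PBS. Idh3a, a subunit of isocitrate dehydrogenase, read 284 and 282 CPM in PBS, 423 and 409 in BMP2, and 467 and 440 in BMP2+DM (0.56 with BMP2, adjusted p = 2.31e-07). Of 14 genes for electron carriers and for exchange across the membranes, 7 rose and 2 fell with BMP2. Against PBS, 11 rose and 0 fell with BMP2+DM. From BMP2 to BMP2+DM, 3 of these 14 rose (21.4%) and 0 fell, and DESeq2 called 4 higher. Among the 18 citric acid cycle genes, 1 rose there (5.56%) and 0 fell. Of all tested genes, 4.28% rose in that comparison. Cycs, which encodes cytochrome c, rose by 0.34 (adjusted p = 0.000165). The ATP synthase inhibitor Atpif1 fell by 0.43 on the log2 scale (adjusted p = 0.00383), from 168 and 131 CPM to 109 and 113.

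Of the 13 mitochondrially encoded subunits, 11 were tested, of which 4 rose and 0 fell with BMP2 and 6 rose and 0 fell with BMP2+DM against PBS. The complex I genes mt-Nd1 and mt-Nd2 rose by 0.34 and 0.37 with BMP2. In complex IV, mt-Co1 did not pass with BMP2 (0.06, adjusted p = 0.129) and rose by 0.12 from BMP2 to BMP2+DM (adjusted p = 0.00971). It was the only 1 of the 11 called in that comparison (9.09%, against 4.28% of all tested genes), and DESeq2 called 0. Counts of some genes were very low beside the others, with at most 1.65 CPM in any library for mt-Co2. The annotation and strand used in counting are not stated, so these low counts cannot be read as low transcript levels.

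The culture holds more than cardiomyocytes, and markers of several cell types moved with the groups. Of all tested genes, 6.55% rose and 9.29% fell with BMP2, and 4.28% and 4.44% from BMP2 to BMP2+DM. From PBS to BMP2+DM, 9.38% rose and 11.5% fell. Endothelial calls with BMP2, 10% each way, are near those shares. Of 15 cardiomyocyte markers, all present, 0 rose and 13 fell with BMP2, 6 rose and 0 fell from BMP2 to BMP2+DM, and 0 rose and 11 fell from PBS to BMP2+DM. Their summed level was 38673 and 38191 CPM in PBS, 29466 and 29286 in BMP2, and 32631 and 32916 in BMP2+DM. With BMP2, 3 of 12 fibroblast markers rose and 5 fell, 1 of 10 endothelial markers rose and 1 fell, and 5 of 8 epicardial and 4 of 8 smooth muscle and pericyte markers fell, with 1 smooth muscle marker rising. Of 10 leukocyte markers 5 were tested, and 1 fell. From BMP2 to BMP2+DM, 0 endothelial markers rose and 5 fell, 3 fibroblast markers rose and 5 fell, 3 epicardial markers rose and 1 fell, 1 smooth muscle marker rose and 2 fell, and 1 leukocyte marker fell. From PBS to BMP2+DM, 0 endothelial markers rose and 7 fell, 4 fibroblast markers rose and 6 fell, 4 epicardial markers fell, 1 smooth muscle marker rose and 5 fell, and 2 leukocyte markers fell. Summed levels were 12852 to 13697 CPM in PBS for fibroblast markers, 13853 to 14035 in BMP2 and 12056 to 12564 in BMP2+DM. For endothelial markers they were 592 to 598, 538 to 554 and 369 to 418 CPM. Epicardial markers summed to 225 to 234, 144 to 153 and 158 to 178 CPM, smooth muscle markers to 3212 to 3279, 1969 to 2032 and 1984 to 2088, and leukocyte markers to 92.3 in both PBS libraries, 69.2 to 69.7 and 62.2 to 64.6. For the lists above that had 0 calls in a direction in any of the 3 comparisons, DESeq2 also called 0, and between 0 and 2 genes passed there at an unadjusted p under 0.05. The part of cell composition in the rises of the members was not tested.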

How the data were processed

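The data are gene-level read counts from 6 libraries of primary neonatal mouse cardiomyocytes, 2 per treatment. The authors deposited whole-number counts per gene symbol, 1 file per library, made with FastQC, Trimmomatic, STAR, HTSeq and DESeq2 on the mm10 genome, per the submitters' processing notes. The sources used here name no versions, annotation or use of strand in counting, so reads of overlapping opposite-strand genes cannot be told apart. The summary lines that name no gene held 53.8% to 54.2% of each file and were left out.

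One model with a mean per group covered the 6 libraries in edgeR 4.0.16 (R 4.3.3), using TMM factors, filterByExpr (minimum count 10, minimum total 15) and the quasi-likelihood test with 3 residual degrees of freedom. Benjamini-Hochberg adjustment ran over 14378 genes, with a threshold of 0.05. CPM are counts over TMM-scaled library size, and errors of log2 fold changes are standard errors. The test was checked on simulated data. Positions, coding lengths and overlaps come from GENCODE vM21 (GRCm38), found for 91 of 92 members. Motifs were searched in RefSeq promoters, found for 75. Shares of isoform pairs use CPM per kilobase of merged exons. DESeq2 1.42.0 was an alternative. Other scalings, no filter, fits of 2 groups, a replicate block and leaving out libraries were further ones.

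Members and lists were chosen with earlier results of these data known. Named members are complex II, Cyc1, the isoform genes, a panel of core subunits, the 3 smallest p of each complex in each comparison, and the highest and lowest CPM of each complex, and others are named as seen. One core subunit is not reported here by name. Within each group the libraries were further apart than sampling noise and counted as 2 samples. Chi-square per degree of freedom over all tested genes was 13.6 in PBS, 17.0 in BMP2 and 3.82 in BMP2+DM. These values include the ribosomal-repeat models, which differed within the PBS and BMP2 pairs, and their part was not separated. No batch is named in the labels. Counting error alone at these depths is small for most members, while 2 libraries per group limit every comparison.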

Additional observations from a re-analysis of the deposited data

How the results depend on the processing

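The 153 named results (51 members in 3 comparisons) were refitted under 15 alternatives each. Of these 2295 refits, 2120 kept their side of the threshold, 130 lost and 45 gained a call, and 0 changed sign while called. The sign changed in 83 refits that were not called in either fit. Members risen with BMP2 ranged from 14 to 27 over the fits without 1 library, and members fallen from 0 to 8. For BMP2+DM against BMP2, rises ranged from 0 to 5, and for BMP2+DM against PBS rises ranged from 27 to 46 and falls from 0 to 1. Without PBS 1 and BMP2 1 together, the rises were 7 with BMP2 and 1 from BMP2 to BMP2+DM, and 0 members fell with BMP2. With no low-count filter, 3 members fell with BMP2 and 14 rose from BMP2 to BMP2+DM (3.90% of all genes). That latter count was 13 with library size alone (5.21%) and 2 in DESeq2 (3.55%). Library size alone moved the median of all genes by at most 0.06 on the log2 scale and gave BMP2+DM sums above PBS of 30.4% for assembly factors, 27.9% for complex II and 20.7% for complex V. The BMP2 sum of complex IV ranged from -7.286% to 14.7% over the fits without 1 library and was 4.61% with library size alone. The causes of these shifts were not tested.

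Over the genes compared, deviations of same-numbered libraries correlated weakly, which does not settle whether the numbers pair the libraries. The first PBS and BMP2 libraries did share a high percentage of ribosomal-repeat counts (1.31% and 2.10%). The first BMP2+DM library did not (0.0753%). The 46 shorter members were higher in the first library in 46 cases for PBS and 37 for BMP2, but in 18 for BMP2+DM. Whether same-numbered libraries were prepared together was not tested. Deviations of same-numbered libraries correlated at 0.08 between PBS and BMP2, -0.03 between PBS and BMP2+DM and -0.003 between BMP2 and BMP2+DM over 11908 genes. With the replicate block, 26 members rose with BMP2, 7 from BMP2 to BMP2+DM (4.18% of all genes) and 45 from PBS to BMP2+DM.

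Isoform shares moved with the length used. By CPM with no length, Cox6a2 was 28.4% in PBS. Cox7a1 was 7.28%, 5.88% and 7.38% in PBS, BMP2 and BMP2+DM, and Cox8b was 3.64%, 2.53% and 3.39%. By the transcript with the longest coding sequence, Cox6a2 was 25% in PBS and 22.5% in BMP2+DM, Cox7a1 was 9.63%, 7.83% and 9.77%, and Cox8b was 5.45% in PBS. The shorter ETS letters CCGGAA were present in 37.3% of matched promoters, against 30.4% of tested and 16.7% of all genes, and the shorter NRF1 letters GCATGCG in 17.3%, against 7.07% and 4.01%.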
